A study of Homo sapiens with 16 samples.

Results

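Nutlin-3A is a small molecule that occupies the pocket in which the ubiquitin ligase MDM2 holds p53, so this study asked what its response owes to p53 by treating cells that lack the protein and cells that have it. The libraries described here are the 8 made from a p53-/- derivative of HCT116, a human colorectal cancer cell line: 4 had Nutlin-3A in the medium and 4 did not. They were chosen by genotype and treatment alone, out of 16 libraries in all. The groups with the drug were p53-/- cells given 5 µM Nutlin-3A and p53-/- cells given 5 µM Nutlin-3A together with 2.5 µM Entinostat (the combination). The groups without it were p53-/- cells given the vehicle DMSO and p53-/- cells given 2.5 µM Entinostat, which inhibits class I histone deacetylases. Each group had 2 replicates, and every treatment lasted 8 hours. The other 8 libraries were p53+/+ HCT116 cells under the same 4 treatments. The labels name no clone or allele for the p53-/- cells, so other differences between the 2 lines cannot be told apart from the loss of p53.

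In untreated cells MDM2 ubiquitinates p53 and keeps its level low. When Nutlin-3A blocks that contact, p53 accumulates, binds its response elements and turns on genes of cell cycle arrest, apoptosis and repair, among them MDM2 itself. A cell without p53 lacks the best known route from the drug to transcription, so any effect there would have to arise without it. MDM2 has other partners too, among them the p53 relative p73 and the retinoblastoma protein.

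The genotypes stood apart in 4 genes chosen after their values were seen (EHF, NRIP1, PROM1 and PXDN, each below 0.1 RPKM in p53-/- and at least 2 RPKM in p53+/+ DMSO cells). Their summed level was 0.114 to 0.332 RPKM in p53-/- cells with Nutlin-3A and 0.117 to 0.293 RPKM without it, against 15.1 to 43.8 RPKM in p53+/+ cells. All 8 p53-/- libraries lay below all 8 p53+/+ libraries, which for the DMSO libraries followed from how the genes were chosen. Alignments per library were 51464000 to 53074700 with Nutlin-3A and 48143500 to 51687400 without it. Of 14 colorectal epithelium markers, 4 (KRT20, VIL1, CDX1 and LGALS4) stayed under 1 RPKM in all 8 p53-/- libraries. The 14 summed to 1800 to 2810 RPKM with Nutlin-3A and 2170 to 2800 RPKM without it. The 20 markers of other cell types summed to 6.18 to 14.5 RPKM with Nutlin-3A and 7.27 to 14.2 RPKM without it, 16 of them stayed under 1 RPKM, and CD3E and HBB were listed at 0 throughout. These are bulk values, in which fewer cells of a kind and less RNA per cell cannot be told apart.

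Each library with Nutlin-3A has a match without it that carries the same replicate number and the same Entinostat state, which gives 4 matched differences that share no library. The pooled effect was the log2 change over all 4, with Entinostat and the replicate number as covariates, on log2(RPKM + 0.5). On that scale the change of genes with low RPKM is understated. A gene is called at an adjusted p under 0.05 (limma with Benjamini-Hochberg adjustment over 12466 genes). Whether replicates are separate cultures is not stated in the labels, and the p-values therefore cover only the spread among these libraries, which could be technical.

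No gene passed that test in p53-/- cells. Of 12466 genes 0% were called in either direction, and the smallest adjusted p was 0.2 by limma. At an unadjusted p under 0.05 there were 1243 genes, 688 higher (5.52% of those tested) and 555 lower (4.45%) with Nutlin-3A, and 301 in all without the replicate number as a covariate. The same effect in p53+/+ cells was called for 5854 genes, of which 2478 rose (19.9%) and 3376 fell (27.1%). The absence of calls does not show that nothing differed, and it sets no bound on size. On log2(RPKM + 0.5) the 95% confidence interval of the change, before any adjustment, lay within ±1 for 12447 of the 12466 genes (99.8%). Its median half-width was 0.15. Genes with low RPKM in p53-/- cells, some of them kept by the filter through p53+/+ cells, can hardly move by 1 on that scale. For such genes the 99.8% says little. The median absolute log2 change was 0.066 in p53-/- cells and 0.174 in p53+/+ cells. All 4 matched differences were above 0 for 1662 genes (13.3%) and below 0 for 1566 genes (12.6%). In 65 genes (0.521%) all 4 libraries with Nutlin-3A lay above all 4 without it, and in 31 genes (0.249%) they lay below.

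The gene with the smallest p of all was MDM2, which encodes the protein the drug binds. It had 18.3 and 22.1 RPKM under Nutlin-3A and 18.6 and 18.4 RPKM under the combination, against 14.6 and 14.7 RPKM under DMSO and 13.6 and 15.1 RPKM under Entinostat. All 4 libraries with the drug were above all 4 without it, and the lowest value with the drug, 18.3 RPKM, stood clear of 15.1 RPKM, the highest without it. The log2 change was 0.40 ± 0.06 (SE), a fold of 1.32, with an unadjusted p of 3.8e-05 and an adjusted p of 0.2 (limma), so the gene was not called. In p53+/+ cells MDM2 had 328 and 268 RPKM under Nutlin-3A, against 20.4 and 20 RPKM under DMSO, and its pooled log2 change was 4.13. The effect in p53-/- cells was smaller than that in p53+/+ cells by 3.73 on the log2 scale, a difference limma called (adjusted p = 1.4e-09).

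MDM2 is read from 2 promoters, and p53 is known to act on the internal one. That window is shown because the gene leads the p53-/- list in cells without its known activator. The sequence is from RefSeq on GRCh38.p14, chr12:68808767-68809066 on the plus strand, and the capitals mark a p53 response element, searched for on both strands as 2 adjacent 10-base elements of the consensus with no bases between them and at most 1 mismatch in each.

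MDM2: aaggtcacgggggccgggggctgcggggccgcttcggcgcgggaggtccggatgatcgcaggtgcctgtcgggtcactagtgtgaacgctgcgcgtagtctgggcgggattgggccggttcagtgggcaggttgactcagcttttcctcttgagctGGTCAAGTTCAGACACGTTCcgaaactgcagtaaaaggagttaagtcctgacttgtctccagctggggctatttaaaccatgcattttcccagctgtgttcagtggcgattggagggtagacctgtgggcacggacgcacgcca

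Such a match was found in 2 of 38 p53 targets with a RefSeq window (5.26%) and in 27 of 9378 tested genes with one (0.288%). A match is a description of letters and says nothing of binding in these cells.

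**Figure D1:**
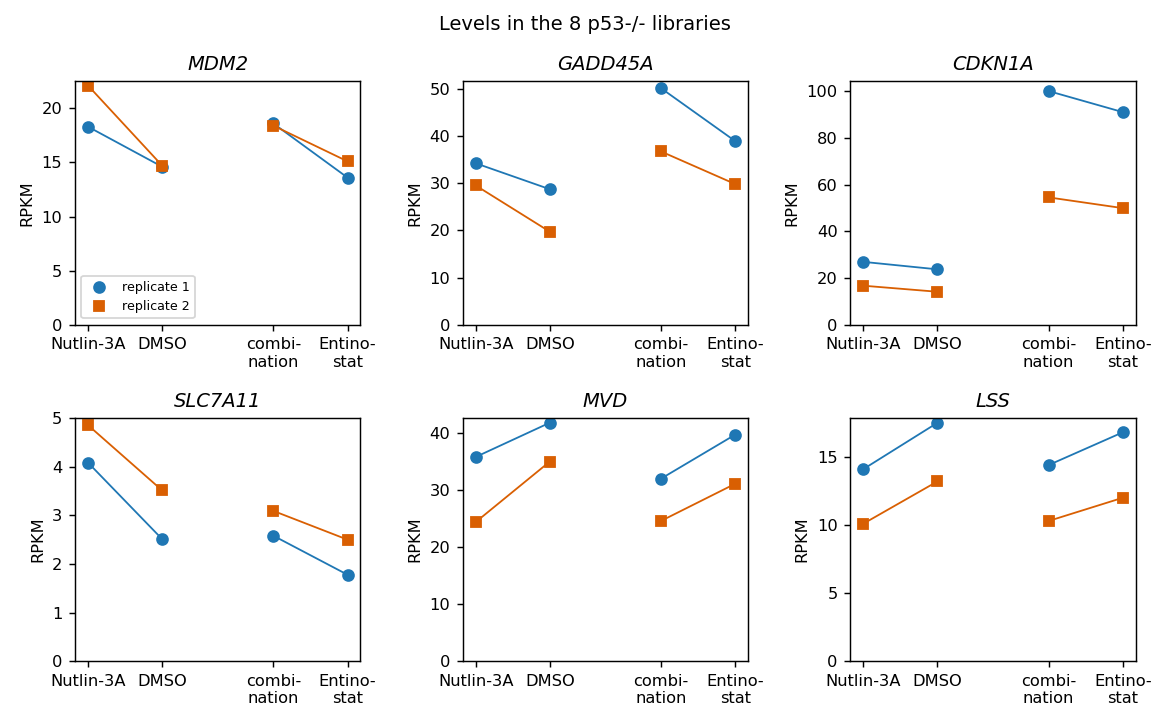
RPKM on linear axes that start at 0 for 6 genes in the 8 p53-/- libraries. Circles are replicate 1, squares replicate 2, and lines join each library with Nutlin-3A to its match without it. All 4 lines slope one way for each gene: MDM2, GADD45A, CDKN1A and SLC7A11 were higher and MVD and LSS lower with the drug, although limma called none of them. For GADD45A, SLC7A11, MVD and LSS the rule that named them required this. Of all genes tested, 13.3% were higher and 12.6% lower in all 4 pairs.

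GADD45A, a stress sensor that p53 and other factors induce, came second. It had 34.2 and 29.5 RPKM under Nutlin-3A and 50.1 and 36.7 RPKM under the combination, against 28.7 and 19.7 RPKM under DMSO and 38.9 and 29.8 RPKM under Entinostat. It was higher than its match in all 4 pairs, while the 2 sets of libraries overlapped, with the Entinostat groups and replicate 1 high. The log2 change was 0.37 ± 0.06 (SE; adjusted p = 0.2 by limma), against 1.46 in p53+/+ cells. SERPINB5, which encodes the serpin maspin, had 16 and 14.9 RPKM under Nutlin-3A and 25.0 and 20.6 RPKM under the combination, against 13.4 and 11.4 RPKM under DMSO and 19.4 and 18.1 RPKM under Entinostat. Again each library with the drug exceeded its match, with a log2 change of 0.29 ± 0.05 (SE) and an adjusted p of 0.32 by limma. GADD45A and SERPINB5 were named by a rule that required all 4 matched differences to share a sign. Their agreement across pairs was thus fixed by the choice.

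CDKN1A, which encodes the cyclin dependent kinase inhibitor p21, showed the same small offset on a baseline that Entinostat set. It had 26.9 and 16.7 RPKM under Nutlin-3A against 23.7 and 14.1 RPKM under DMSO, and 100 and 54.5 RPKM under the combination against 91.0 and 49.9 RPKM under Entinostat. The 4 matched differences were 0.18, 0.23, 0.14 and 0.13 on the log2 scale, and the pooled change of 0.17 ± 0.05 (SE) had an adjusted p of 0.49 by limma. In p53+/+ cells the pooled change was 3.25. PMAIP1, which encodes the BH3-only protein NOXA, had a log2 change of 0.29 ± 0.08 (SE) in p53-/- and 0.79 in p53+/+ cells. FAS, a death receptor, had 0.29 ± 0.09 (SE) in p53-/- and 1.66 in p53+/+ cells. GDF15, a secreted stress cytokine, had matched differences of 0.23, -0.04, 0.41 and 0.38, so replicate 2 of Nutlin-3A against DMSO departed from the other 3 pairs.

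The p53 target list as a whole shifted by far less than in p53+/+ cells. Of 50 listed genes 45 passed the filter on low RPKM. In p53-/- cells 0 of the 45 were called, 8 were higher (17.8%) and 2 lower (4.44%) at an unadjusted p under 0.05, beside 5.52% and 4.45% of all genes. The median log2 change was 0.06, against 0.002 over all genes tested. It was 0.03 without replicate 1 of the combination, and also 0.03 after a correction for GC content and transcript length in each library, which was chosen after the data were seen. In all 4 pairs 12 of them (26.7%) were higher and 5 (11.1%) lower, beside 13.3% and 12.6% of all genes, so the share of lower genes was near the background. In p53+/+ cells 43 of the 45 rose and 0 fell, beside 19.9% and 27.1% of all genes, with a median of 1.48. The difference between genotypes was called for 42 of the 45, each lower in p53-/- cells. Beside them stand 18.7% of all genes whose Nutlin-3A effect was called higher and 14.1% called lower in p53-/- than in p53+/+ cells. The 8 higher ones were APAF1 (log2 change 0.17, and 0.11 after the correction), CDKN1A, FAS, GADD45A, GDF15, MDM2, PMAIP1 and SERPINB5. The 2 lower ones were AEN (-0.11) and BAX (-0.16, and -0.09 after the correction).

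Several targets with large changes in p53+/+ cells had pooled changes within 0.1 of 0 in p53-/- cells. TP53I3, an oxidoreductase, had 2.68 and 1.80 RPKM under Nutlin-3A and 2.41 and 1.85 RPKM under the combination, against 2.20 and 2.07 RPKM under DMSO and 2.38 and 2.28 RPKM under Entinostat. These values overlapped and the log2 change was -0.04 ± 0.09 (SE), against 3.73 in p53+/+ cells. BTG2, an antiproliferative cofactor, had 0.07 ± 0.07 (SE) in p53-/- and 2.76 in p53+/+ cells. SESN1, a sestrin that restrains mTOR, had 0.05 ± 0.07 (SE) in p53-/- and 2.06 in p53+/+ cells. BBC3, which encodes PUMA, had 0.02 ± 0.10 (SE) in p53-/- and 2.17 in p53+/+ cells. Its p53-/- value was 0.12 after the GC and length correction, and 0.14 (unadjusted p = 0.05 by limma) when replicate 2 of Nutlin-3A and of DMSO was left out. The TRAIL receptor gene TNFRSF10B had 30.6, 30.3, 31.5 and 27.8 RPKM with Nutlin-3A, against 30.3, 29.3, 32.0 and 28.0 RPKM without it, a log2 change of 0.01 with a 95% interval from -0.10 to 0.12. In p53+/+ cells that gene rose by 1.41. CFLAR, which encodes the caspase-8 regulator FLIP, had 0.09 ± 0.08 (SE) in p53-/- and 0.68 in p53+/+ cells.

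**Figure D2:**
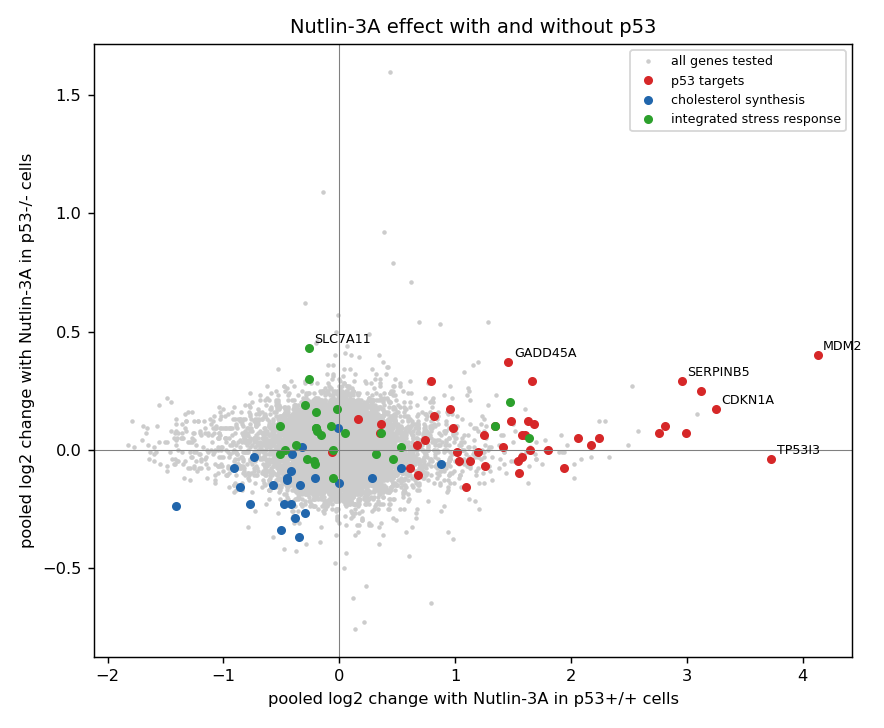
Pooled log2 change with Nutlin-3A in p53-/- cells (vertical axis) against that in p53+/+ cells (horizontal axis), 1 point per gene, from RPKM. The axes differ in scale. The p53 targets reach 4.13 in p53+/+ cells and at most 0.40 in p53-/- cells, and cholesterol synthesis genes lie below 0 on both axes for the most part.

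The relatives of p53 and of MDM2 had small changes. TP73, which encodes p73, had 5.55 and 4.44 RPKM under Nutlin-3A and 3.82 and 4.77 RPKM under the combination, against 6.33 and 5.17 RPKM under DMSO and 4.35 and 4.37 RPKM under Entinostat. The values overlapped, and the log2 change of -0.11 ± 0.09 (SE) differed from the fall by 0.78 in p53+/+ cells by 0.67 (adjusted p = 0.0034 by limma). MDM4, the MDM2 partner that also restrains p53, had 0.13 ± 0.06 (SE) in p53-/- and 0.23 in p53+/+ cells, a difference that limma did not call (adjusted p = 0.44). After the GC and length correction the p53-/- values were -0.04 for TP73 and 0.05 for MDM4. Among 19 genes of the p53 family and MDM2 partners, 3 (15.8%, beside 5.52% of all genes) were higher at an unadjusted p under 0.05: MDM2, XIAP (log2 change 0.20), an inhibitor of caspases, and RB1 (0.19), which encodes the retinoblastoma protein. After the GC and length correction XIAP had 0.10 (unadjusted p = 0.12 by limma) and RB1 0.09, and without the replicate number as a covariate 1 of the 19 was higher at that level.

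Genes of cholesterol synthesis were mostly lower with Nutlin-3A, although none was called. The pathway runs from acetyl-CoA through mevalonate and squalene to cholesterol, and SREBP-2, the product of SREBF2, switches its genes on when sterols are scarce. All 24 listed genes were tested, and 0 passed the adjusted threshold of limma. The median log2 change was -0.14, and the list medians of the 4 matched differences were -0.14 and -0.15 for replicates 1 and 2 of Nutlin-3A against DMSO and -0.10 and -0.20 for those of the combination against Entinostat. In all 4 pairs 16 of the 24 (66.7%) were lower and 0 higher, beside 12.6% and 13.3% of all genes. At an unadjusted p under 0.05, 12 were lower (50.0%) and 0 higher, beside 4.45% and 5.52% of all genes. Without the replicate number as a covariate 2 of the 24 reached that level, a setting in which the count over all genes also fell. When each library was left out in turn, 11 to 14 of the 24 did. Genes of a pathway vary together, so their number is not a number of independent observations.

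**Figure D3:**
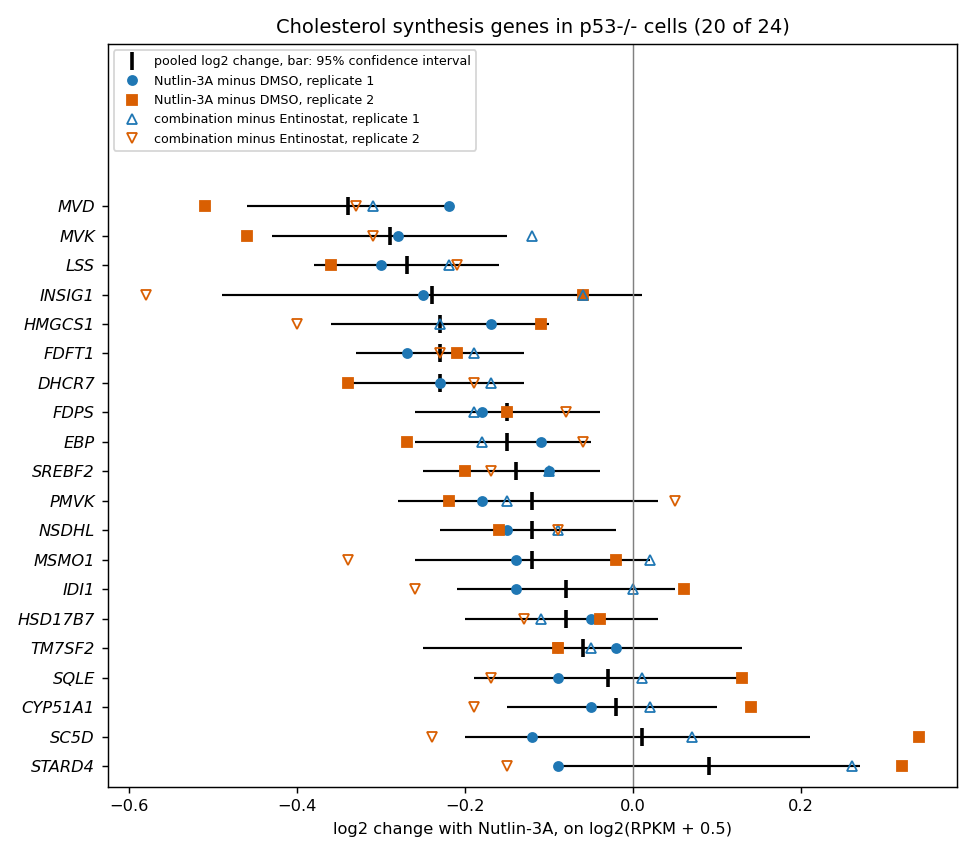
Log2 change with Nutlin-3A in p53-/- cells for 20 of the 24 cholesterol synthesis genes, on log2(RPKM + 0.5). Symbols are the 4 matched differences, the short vertical bar is the pooled change and the line its 95% confidence interval. All 4 symbols lie below 0 for 13 of the 20 genes, with the lowest pooled change at -0.34 for MVD, and SC5D and STARD4 have pooled changes above 0.

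MVD, mevalonate diphosphate decarboxylase, had 35.8 and 24.4 RPKM under Nutlin-3A and 32.0 and 24.6 RPKM under the combination, against 41.8 and 35.0 RPKM under DMSO and 39.7 and 31.1 RPKM under Entinostat. Each library with the drug was below its match, while libraries of different pairs overlapped. The log2 change was -0.34 ± 0.05 (SE), with an unadjusted p of 6.6e-05 and an adjusted p of 0.2 by limma. LSS, lanosterol synthase, had 14.1 and 10.1 RPKM under Nutlin-3A and 14.4 and 10.3 RPKM under the combination, against 17.5 and 13.2 RPKM under DMSO and 16.8 and 12 RPKM under Entinostat. It too was below its match in all 4 pairs, with a log2 change of -0.27 ± 0.05 (SE; adjusted p = 0.4 by limma). The rule that named MVD, LSS, MVK, FDFT1 and DHCR7 required all 4 pairs to share a sign. That agreement was thus fixed by the choice.

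The steps of the pathway differed among themselves. HMGCS1, which makes HMG-CoA, had a log2 change of -0.23. MVK, mevalonate kinase, had 10.7 and 6.6 RPKM under Nutlin-3A and 13.5 and 9.02 RPKM under the combination, against 13.1 and 9.24 RPKM under DMSO and 14.7 and 11.3 RPKM under Entinostat, a log2 change of -0.29 ± 0.06 (SE) with all 4 pairs lower. FDFT1, squalene synthase, had -0.23 with matched differences from -0.27 to -0.19. SQLE, the next enzyme, had -0.03 and its matched differences lay on both sides of 0. DHCR7, which acts late in the pathway, had -0.23. INSIG1, which retains the SREBP precursor in the endoplasmic reticulum, had -0.24 with a wide interval from -0.49 to 0.01, and its difference was -0.58 in replicate 2 of the combination. SREBF2 itself had -0.14 ± 0.05 (SE).

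The list was lower in p53+/+ cells as well. There 19 of the 24 fell and 3 rose, beside 27.1% and 19.9% of all genes, with a median of -0.41. For MVD, MVK and LSS the p53+/+ changes were -0.50, -0.38 and -0.30, and limma called no difference between genotypes (adjusted p = 0.15, 0.55 and 0.84). A p that misses the threshold does not show that the effects were alike. For 9 of the 24 the effect was called higher in p53-/- cells, that is, a smaller fall or none, among them INSIG1 (difference 1.17), SQLE (0.71) and HMGCS1 (0.54). For 3 it was called lower. Of all genes tested, 18.7% were called higher and 14.1% lower by that difference.

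The promoters of MVD and MVK are shown as examples of genes that were lower in all 4 pairs in p53-/- cells and fell in p53+/+ cells. They were picked among genes of the list with only 1 window that held a motif match, so the choice fixed that a match would be found. LSS was also picked and was lower in all 4 pairs, but its window, with 1 CCAAT match, is not printed. Genes of this pathway are known to pair an SREBP site with a CCAAT box, the site of the factor NF-Y. Both windows run from 250 bases before to 50 after the RefSeq start on GRCh38.p14, MVD at chr16:88663042-88663341 on the minus strand and MVK at chr12:109573544-109573843 on the plus strand. Capitals mark CCAAT or its reverse complement, searched for on both strands, of which MVD holds 3 and MVK 5.

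MVD: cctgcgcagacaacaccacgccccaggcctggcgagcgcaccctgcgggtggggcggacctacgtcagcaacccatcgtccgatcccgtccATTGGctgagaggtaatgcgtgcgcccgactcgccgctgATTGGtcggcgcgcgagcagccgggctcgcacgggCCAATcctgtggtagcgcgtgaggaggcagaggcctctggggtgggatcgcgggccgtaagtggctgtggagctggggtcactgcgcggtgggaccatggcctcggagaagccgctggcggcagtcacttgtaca

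MVK: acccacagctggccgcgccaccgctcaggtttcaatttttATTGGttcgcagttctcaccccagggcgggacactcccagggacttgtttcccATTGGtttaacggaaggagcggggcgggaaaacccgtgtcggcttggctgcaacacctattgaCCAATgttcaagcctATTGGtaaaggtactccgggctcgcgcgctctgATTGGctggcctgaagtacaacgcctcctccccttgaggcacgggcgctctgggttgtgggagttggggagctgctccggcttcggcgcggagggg

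CCAAT was found in 16 of the 18 cholesterol synthesis genes with a window (88.9%) and in 4089 of 9378 tested genes (43.6%). The sterol element TCACNCCAC, also searched for on both strands, was found in 1 of the 18 (5.56%), SREBF2, and in 134 of the 9378 (1.43%). No match says only that these letters are not in the window. Neither motif holds the letters of the other.

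The neighbouring fatty acid pathway had smaller values of the same sign. Of 13 tested genes of fatty acid synthesis and SREBP-1, 4 (30.8%, beside 4.45% of all genes) were lower at an unadjusted p under 0.05 and 0 higher, with a median of -0.08. Without the replicate number as a covariate 0 of the 13 were, and without replicate 1 of DMSO 2 were. They were FASN, fatty acid synthase (-0.26), SREBF1, which encodes SREBP-1 (-0.19, and -0.12 after the GC and length correction), SCD, the stearoyl-CoA desaturase (-0.16), and ACLY, ATP citrate lyase (-0.11). In all 4 pairs 4 of the 13 (30.8%) were lower and 0 higher, beside 12.6% and 13.3% of all genes.

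Genes of the integrated stress response tended the other way. In this pathway phosphorylation of the factor eIF2-alpha raises translation of ATF4, which induces genes of amino acid supply and redox defence. The median log2 change of the 27 tested genes was 0.07. It was 0.035 without replicate 1 of DMSO, 0.045 without replicate 1 of Entinostat and 0.047 without replicate 2 of the combination. In all 4 pairs 9 of them (33.3%) were higher and 1 (3.70%) lower, beside 13.3% and 12.6% of all genes. At an unadjusted p under 0.05, 5 were higher (18.5%) and 1 lower (3.70%), beside 5.52% and 4.45% of all genes. The lower one was SHMT2 (-0.12, and -0.06 after the GC and length correction). Without the replicate number as a covariate 2 were higher and 0 lower, and on leaving out a library 4 to 9 (9 without replicate 2 of Nutlin-3A) were higher.

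SLC7A11, the cystine importer that feeds glutathione synthesis, stood out among them. It had 4.08 and 4.85 RPKM under Nutlin-3A and 2.58 and 3.09 RPKM under the combination, against 2.51 and 3.51 RPKM under DMSO and 1.78 and 2.50 RPKM under Entinostat. Each library with the drug was above its match, as the rule that named the gene required. The 2 sets overlapped, with the Entinostat groups low. The log2 change was 0.43 ± 0.07 (SE; adjusted p = 0.23 by limma). In other cells p53 is known to repress this gene, and in p53+/+ cells it had a log2 change of -0.26 that limma did not call (adjusted p = 0.067). The difference of 0.69 between genotypes was called (adjusted p = 0.0054 by limma), but not without the replicate number as a covariate (adjusted p = 0.077). CHAC1, which degrades glutathione, had 0.30 ± 0.09 (SE) and a difference from p53+/+ cells of 0.55 (adjusted p = 0.0087 by limma). PSAT1, of serine synthesis, had 0.19 ± 0.05 (SE) and a difference of 0.49 (adjusted p = 0.0016 by limma). ASNS, asparagine synthetase, had 0.17, and ATF4 itself had 0.08 ± 0.05 (SE), or 0.14 after the GC and length correction. ATF3 had 0.20 in p53-/- and 1.47 in p53+/+ cells. GCLM, a subunit of the enzyme that starts glutathione synthesis and a member of the NRF2 list, had 0.20 ± 0.05 (SE) in p53-/- and -0.26 in p53+/+ cells, a difference of 0.46 (adjusted p = 0.00097 by limma). After the GC and length correction its p53-/- value was 0.09. The 20 tested genes of the NRF2 list had a median of -0.02 in p53-/- cells, with 11 below 0 and 9 above. In all 4 pairs 3 of them (15%) were higher and 3 (15%) lower, beside 13.3% and 12.6% of all genes.

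**Figure D4:**
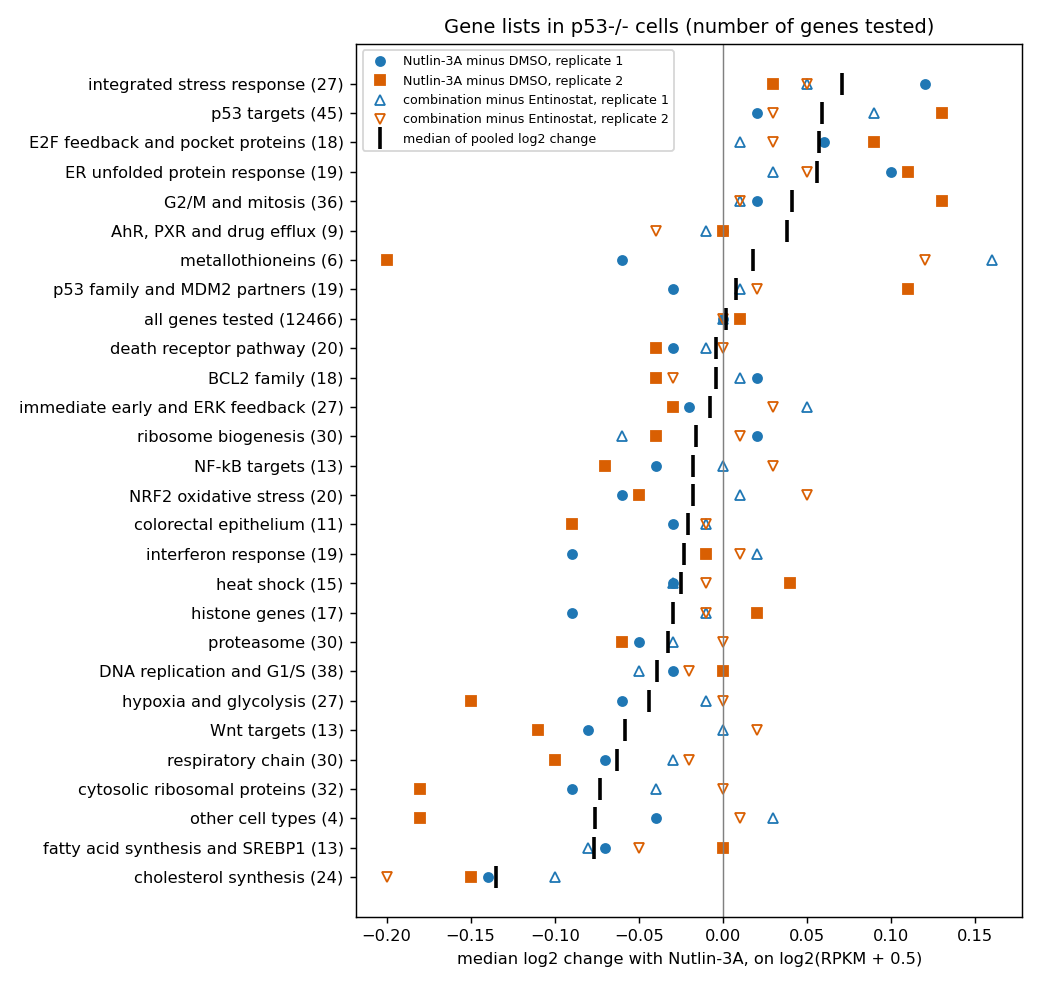
Median log2 change with Nutlin-3A in p53-/- cells for 27 gene lists and for all genes tested, ordered by the median of the pooled change (black bar). Symbols give the list median in each of the 4 matched differences. The medians of the cholesterol synthesis list lie between -0.20 and -0.10 in all 4, whereas the squares of replicate 2 of Nutlin-3A against DMSO lie apart from the other symbols in many lists.

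Other genes at the top of the higher side were of mixed function. The rule that named them required all 4 matched differences to be positive. NEAT1, the noncoding RNA of paraspeckles and a p53 target in other settings, had 2.90 and 4.12 RPKM under Nutlin-3A and 14.4 and 17.8 RPKM under the combination, against 2.15 and 2.79 RPKM under DMSO and 12.4 and 14.6 RPKM under Entinostat. It was higher in all 4 pairs, with a log2 change of 0.33 ± 0.06 (SE) against 1.08 in p53+/+ cells. TINAGL1, a matrix protein, had 56.4 and 40.9 RPKM under Nutlin-3A and 104 and 68.8 RPKM under the combination, against 41.4 and 37.0 RPKM under DMSO and 77.1 and 51.6 RPKM under Entinostat, a log2 change of 0.36 ± 0.07 (SE; adjusted p = 0.41 by limma). FZD6, a Wnt receptor, had 0.27 ± 0.05 (SE), and all 4 of its libraries with the drug, at 13.5 to 15.4 RPKM, lay above the 11.5 to 12.4 RPKM without it. Its change in p53+/+ cells was 0.47, a difference that was not called (adjusted p = 0.1 by limma). INPP4B, a phosphoinositide phosphatase, had 0.30, MOB1B, a Hippo pathway adaptor, 0.32, SPCS3, a signal peptidase subunit, 0.28, and RAB5A, a GTPase of early endosomes, 0.25. After the GC and length correction INPP4B had 0.19, MOB1B 0.18 and SPCS3 0.16. The readthrough transcript SENP3-EIF4A1 had 0.50, a value that is uncertain because it shares sequence with both of its parent genes.

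On the lower side, besides the cholesterol genes MVD, LSS, DHCR7, FDFT1 and MVK, stood MSX1, a homeobox factor. It had 38.4 and 38.3 RPKM under Nutlin-3A and 31.4 and 33.7 RPKM under the combination, against 45.5 and 51.5 RPKM under DMSO and 38.0 and 39.1 RPKM under Entinostat. Each library with the drug was below its match, as the rule that named these genes required. The log2 change was -0.29 ± 0.05 (SE; adjusted p = 0.26 by limma). In p53+/+ cells MSX1 rose by 0.46, and the difference of -0.75 was called (adjusted p = 0.00038 by limma). EMC9, of a membrane protein insertion complex, had -0.28, the zinc finger gene ZNF358 -0.36, EVA1B -0.30 and LOC105369635 -0.45.

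The lists of G2/M and mitosis and of DNA replication and G1/S had medians within 0.05 of 0 in p53-/- cells, while most of their genes fell in p53+/+ cells. The list of E2F feedback and pocket proteins had a median of 0.06 over 18 genes. Of these 12 fell in p53+/+ cells, beside 27.1% of all genes. In all 4 pairs 5 of the 18 (27.8%) were higher and 1 (5.56%) lower, beside 13.3% and 12.6% of all genes. At an unadjusted p under 0.05, 1 of the 18 (5.56%) was higher, near the 5.52% of all genes, and 0 lower, beside 4.45%. Of 36 genes of G2/M and mitosis 36 fell in p53+/+ cells, beside 27.1% of all genes, and 0 were called in p53-/- cells, where the median was 0.04. In all 4 pairs 12 of the 36 (33.3%) were higher and 2 (5.56%) lower, beside 13.3% and 12.6% of all genes. There were 5 (13.9%) higher and 1 (2.78%) lower at an unadjusted p under 0.05, beside 5.52% and 4.45% of all genes, and without the replicate number as a covariate 1 was higher. The count of higher genes was 1 without replicate 2 of DMSO, replicate 2 of Nutlin-3A or replicate 1 of the combination, and 9 without replicate 2 of the combination. CCNB1, cyclin B1, had 146 and 143 RPKM under Nutlin-3A and 92.4 and 102 RPKM under the combination, against 144 and 139 RPKM under DMSO and 90.4 and 99.5 RPKM under Entinostat. The 4 pairs differed by 0.02 to 0.04, and the pooled change of 0.03 had a 95% interval from -0.07 to 0.14, against a fall by 1.31 in p53+/+ cells. Of 38 genes of DNA replication and G1/S, 35 fell in p53+/+ cells, beside 27.1% of all genes. In p53-/- cells the median was -0.04. There 1 was higher and 1 lower (2.63% each) at an unadjusted p under 0.05, beside 5.52% and 4.45% of all genes. In all 4 pairs 2 of the 38 (5.26%) were higher and 11 (28.9%) lower, beside 13.3% and 12.6% of all genes. The mismatch repair gene MSH6 had -0.01 ± 0.05 (SE) in p53-/- and -1.24 in p53+/+ cells. SLBP, which binds histone mRNA, had 0.00 ± 0.04 (SE) in p53-/- and -1.11 in p53+/+ cells. FBXO5, an inhibitor of the anaphase promoting complex, had 0.07 in p53-/- and -1.67 in p53+/+ cells. For GSG2, which encodes the mitotic kinase haspin, the values were -0.06 in p53-/- and -1.43 in p53+/+ cells.

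Translation and respiration genes had small negative medians. All 32 cytosolic ribosomal protein genes rose in p53+/+ cells, beside 19.9% of all genes. The difference was called for 29, each lower in p53-/- cells, beside 14.1% of all genes. In p53-/- cells all 32 had a pooled change below 0, with a median of -0.07. There 8 (25.0%, beside 4.45% of all genes) were lower at an unadjusted p under 0.05. After quantile normalization 20 of the 32 were below 0 and 0 reached that level, and 0 reached it without the replicate number as a covariate. On leaving out a library 0 (replicate 1 of DMSO) to 15 (replicate 2 of the combination) reached it. Their median was -0.18 in replicate 2 of Nutlin-3A against DMSO and 0.00 in replicate 2 of the combination against Entinostat. Of 30 respiratory chain subunits 13 (43.3%) were lower in all 4 pairs and 3 (10.0%) were lower at an unadjusted p under 0.05, beside 12.6% and 4.45% of all genes, with a median of -0.06. Without the replicate number as a covariate 0 of them reached that level, and on leaving out a library 1 (either replicate of DMSO, replicate 2 of Nutlin-3A or replicate 1 of the combination) to 6 (replicate 2 of the combination) did. Of 27 hypoxia and glycolysis genes 6 (22.2%) were lower and 0 higher at that level, beside 4.45% and 5.52% of all genes. Among the lower ones was ALDOC, a glycolytic aldolase (-0.23). The count of lower genes was 0 without the replicate number as a covariate and 1 after the GC and length correction. It was also 1 without any of the 4 libraries of DMSO and Nutlin-3A, each left out in turn, and 3 without replicate 1 of the combination. Of 15 heat shock genes 3 (20%, beside 4.45% of all genes) were lower, and 1 was without the replicate number as a covariate. Among the 3 was HSPB1, a small chaperone (-0.17, and -0.08 after the GC and length correction). The list median was -0.02 and turned to 0.03 under quantile normalization. Of 19 genes of the endoplasmic reticulum unfolded protein response 7 (36.8%) were higher in all 4 pairs and 0 lower, beside 13.3% and 12.6% of all genes. Of these 19 genes 2 (10.5%, beside 5.52% of all genes) were higher at an unadjusted p under 0.05, among them DNAJB9 (0.20), a cochaperone, and 0 without the replicate number as a covariate. On leaving out a library that count was 1 (replicate 1 of DMSO, replicate 2 of Nutlin-3A or replicate 1 of the combination) to 4 (replicate 2 of the combination).

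The remaining lists differed among themselves. Among 9 genes of foreign compound response and drug efflux (AhR and PXR targets) 0 reached an unadjusted p under 0.05 in either direction, CYP1A1 having 0.08 ± 0.09 (SE). Of 13 NF-kB targets 0 did, and of 19 interferon response genes 2 (10.5%, beside 4.45% of all genes) were lower, ISG15 (-0.21, and -0.12 after the GC and length correction) and IFITM2 (-0.16). Without the replicate number as a covariate 0 of the 19 were. Of 18 BCL2 family genes PMAIP1 was higher and BAX lower, 5.56% each and near the background of 5.52% and 4.45%. Of 20 death receptor pathway genes FAS, XIAP and BIRC2 were higher (15%, beside 5.52% of all genes) and TRADD lower (5%, near the 4.45%). Without replicate 2 of DMSO 0 of these 20 were higher, and 1 was after the GC and length correction. Of 17 histone genes HIST1H2BC (0.57) and HIST1H1E (0.46) were higher at that level (11.8%, beside 5.52% of all genes). Of the 17, 0 were without replicate 1 of DMSO, replicate 2 of Nutlin-3A or replicate 2 of Entinostat. Without replicate 2 of DMSO or replicate 1 of the combination 1 was. HIST1H2BC had 0.371 to 1.73 RPKM in the 8 libraries, and both genes are uncertain because histone genes resemble each other and their mRNAs mostly lack poly(A) tails.

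Pooling assumes that Entinostat does not alter the Nutlin-3A effect. The interaction was called for 0 of 12466 genes (0% in each direction), with a smallest adjusted p of 0.99 by limma and 374 genes at an unadjusted p under 0.05, 300 (2.41%) higher and 74 (0.594%) lower. Its median interval was wider than that of the pooled effect, with a half-width of 0.30. NRTN, a neurotrophic factor, had the second smallest p with a positive interaction: it had 4.63 and 4.03 RPKM under Nutlin-3A against 6.01 and 5.31 RPKM under DMSO, and 5.52 and 5.14 RPKM under the combination against 4.82 and 4.41 RPKM under Entinostat. It was thus lower with the drug in both pairs without Entinostat and higher in both with it, although the interaction of 0.54 was not called. For MDM2, GADD45A and MVD the interaction was -0.09, -0.08 and 0.05.

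Nutlin-3A alone against DMSO was called for 0 genes (0%), with a smallest adjusted p of 0.36 by limma. At an unadjusted p under 0.05, 617 (4.95%) were higher and 1006 (8.07%) lower. Of the genes named by the smallest p there, SENP3-EIF4A1, SLC7A11, MDM2, NEAT1 and GADD45A were higher and RABAC1, a membrane traffic protein (-0.47), and FAM89B (-0.47) lower. Nutlin-3A added to Entinostat was called for 0 genes (0%), with a smallest adjusted p of 0.65 by limma. At an unadjusted p under 0.05, 114 (0.914%) were higher and 81 (0.650%) lower. MDM2, TINAGL1, GDF15 and the secretory cell factor gene BHLHA15 were among its 5 highest by that p, and HMGCS1 and MVD among its 5 lowest. The effect on MDM2 was 0.36 with Entinostat and 0.44 without it, and that on MVD -0.32 with Entinostat and -0.37 without it. GDF15 had 0.40 with Entinostat and 0.10 without it, an interaction of 0.30 that was not called.

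A pair of libraries differed from the others in a way that followed base composition. The median absolute difference was 0.158 in replicate 2 of Nutlin-3A against DMSO, and 0.077, 0.071 and 0.054 in replicate 1 of that comparison and in replicates 1 and 2 of the combination against Entinostat. Across 11916 genes with a GENCODE transcript the Spearman correlation of the difference with GC content was -0.76 in that pair and -0.35, -0.33 and -0.10 in the other 3, a description over genes that share libraries. With transcript length it was 0.25 in that pair, and 0.36, 0.11 and 0.08 in the other 3, so replicate 1 of Nutlin-3A against DMSO had the highest. In that pair the median difference was 0.246 in the bin of genes with the lowest and -0.278 in the bin with the highest GC content, of 10 equal bins. Whether GC content or transcript length accounts for any result was not tested.

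**Figure D5:**
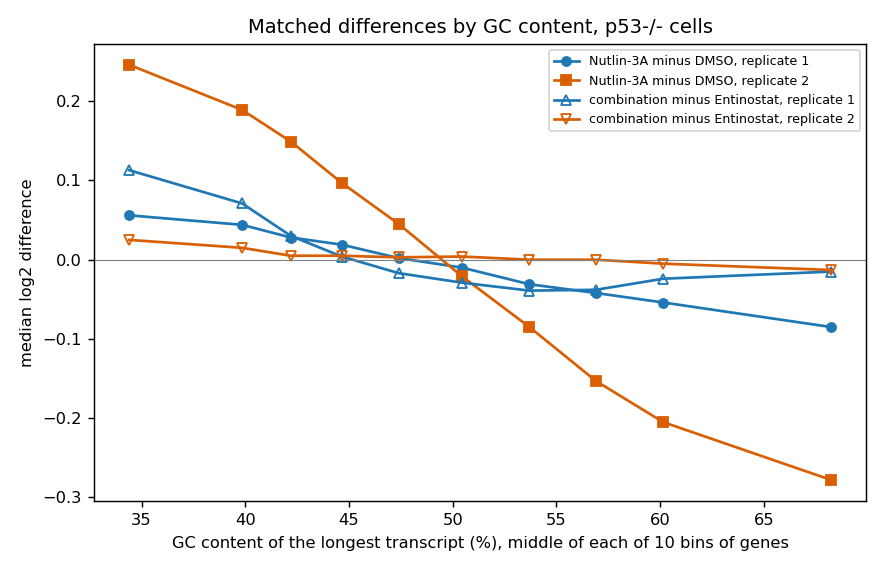
Median log2 difference with Nutlin-3A in p53-/- cells in 10 equal bins of 11916 genes by GC content (horizontal axis, percent), for each of the 4 matched differences, from RPKM. Replicate 2 of Nutlin-3A against DMSO runs from 0.246 to -0.278, while the other 3 stay between -0.085 and 0.113.

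With the correction for GC content and transcript length in each library 0 genes were called, and the smallest adjusted p was 0.17 by limma. In both directions together 690 of 11916 genes, rather than 1243 of 12466, reached an unadjusted p under 0.05. Among the 4 genes with the smallest p were then GADD45A (log2 change 0.40), MDM2 (0.31) and GDF15 (0.34). Of the 24 cholesterol synthesis genes 16 were lower at that level and the median was -0.13, and of the 27 integrated stress response genes 11 were higher and 0 lower. The p53 targets had a median of 0.03, with 9 of 45 higher and 1 lower. These list counts stand beside the 690 of 11916 genes, which are not split by direction here.

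When the 2 libraries of that pair were left out instead, 11 genes were called among the remaining 6 libraries, a choice also made after the data were seen. The 8 higher ones were TINAGL1 (0.43), LOC642423 (1.08), the small RNAs SNORA48 (1.67) and SNORA4 (0.63), GADD45A (0.30), MDM2 (0.34), GDF15 (0.34) and ALDH1A3 (0.22), which encodes a retinal dehydrogenase. The 3 lower ones included MVD (-0.29) and MSX1 (-0.24). For MDM2 the adjusted p was then 0.034 and for GADD45A 0.027 by limma. Small nucleolar RNAs lie in introns of other genes, so their values are uncertain. These 6 libraries leave only 2 pairs with Entinostat and 1 without it.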

How the data were processed

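Polyadenylated RNA was sequenced in stranded libraries, per the labels' protocols. The deposited values are RPKM per gene, which the authors computed by scaling reads to gene length and library size. The submitters' processing notes name Bowtie2, Partek and hg19. For versions, gene models and strand settings nothing is given in the sources used here. Depth is known as alignments per library, 45902800 to 55507300. Of 20612 genes, the 12466 (60.5%) that averaged 0.5 RPKM or more over 16 libraries were tested on log2(RPKM + 0.5), with no further scaling, by limma 3.58.1 in R 4.3.3 with an intensity trend.

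The pooled effect was fitted to the 8 p53-/- libraries with Nutlin-3A, Entinostat and replicate number as terms (4 residual and 6.48 prior degrees of freedom). The interaction and both single effects came from the same libraries with an interaction term, and the p53+/+ effect and the difference between genotypes from all 16. p-values were adjusted by the Benjamini-Hochberg method within each comparison. Differences between replicates 2 and 1 correlated across genes in all 6 pairs of p53-/- groups (r from 0.38 to 0.78). The members, the 27 lists and the comparisons were chosen with earlier results of these data known. The fits other than the interaction were checked on simulated data. Noise in it was drawn independently for each gene and library, so differences that many genes share, such as those that followed GC content, were not covered.

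Named genes were 8 fixed ones, then, among genes that averaged 1 RPKM or more in the libraries fitted and had 4 matched differences of one sign, the 12 called genes with the largest change in each direction, filled by smallest unadjusted p. In the other comparisons the 5 with the smallest p in each direction were eligible, and up to 4 per list. Other genes of the lists and of counts were named after their values were seen. Readthrough, pseudogene and small RNA genes chosen this way are not described in full. A few genes that the rule picked go unreported here, although counts over lists and over all genes include them. GC content and length of the longest transcript came from GENCODE v29 for 11916 of the 12466 genes (95.6%), matched by symbol, and were regressed out per library with quadratic terms.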

Additional observations from a re-analysis of the deposited data

Results flagged for a closer look

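The Nutlin-3A effect differed between p53-/- and p53+/+ cells for 4088 genes by a direct test of the difference (limma, adjusted p under 0.05). Each value below is the log2 change with Nutlin-3A in p53-/- cells minus that in p53+/+ cells.

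It was lower in p53-/- cells for the p53 targets TP53I3 (-3.77), MDM2 (-3.73), CDKN1A (-3.08), GDF15 (-2.88), BTG2 (-2.69) and SERPINB5 (-2.67). Smaller differences of the same sign were found for the death receptor genes TNFRSF10B (-1.40) and FAS (-1.37), for GADD45A (-1.09) and for CFLAR (-0.59). It was higher in p53-/- cells for genes of replication and mitosis, FBXO5 (1.75), GSG2 (1.37), CCNB1 (1.35), MSH6 (1.23) and SLBP (1.11), all of which fell in p53+/+ cells. It was also higher for SLC7A11 (0.69) and TP73 (0.67).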

How the results depend on the processing

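The pooled effect in p53-/- cells had 0 called genes under most settings, including no replicate block, where 301 rather than 1243 genes reached an unadjusted p under 0.05. List counts given without the replicate number as a covariate belong beside that smaller total. The pooled effect had 1 called gene with no filter on RPKM and 11 with 6 libraries. With no filter the interaction had 32, Nutlin-3A alone 12 and Nutlin-3A added to Entinostat 35, and the 45 genes concerned had mean RPKM of at most 0.207. Leaving out each library in turn gave 0 to 1 calls for the interaction, 0 to 6 for Nutlin-3A alone (6 without replicate 1 of Nutlin-3A) and 0 to 2 for Nutlin-3A added to Entinostat. With no replicate block the p53+/+ effect had 3790 calls and the difference between genotypes 2009, against ranges of 4631 to 5782 and 3122 to 4659 on leaving out a library. The cause was not tested. TNFRSF10B in p53-/- cells was -0.01 with 6 libraries and between -0.02 and 0.03 on leaving out a library. SLC7A11 kept a difference of 0.69 with no replicate block, with an adjusted p of 0.077 by limma. Depth limits genes of low RPKM most.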

Other observations

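Replicate 2 of Nutlin-3A in p53-/- cells also stood apart for noncoding RNAs made by RNA polymerase III. RMRP, the RNA of an RNA processing enzyme, had 31.1 RPKM there, against 0.584 to 2.07 RPKM in the other 7 p53-/- libraries. RPPH1, the RNA of RNase P, had 12.2 RPKM there, against 0 to 0.619 RPKM in the other 7. Neither gene was called in the pooled effect, where the log2 changes were 1.09 and 0.79 with adjusted p of 0.56 and 0.66 by limma. The 2 RNAs are not polyadenylated messengers, and no cause was tested.

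The 4 matched differences shared no library, and their Pearson correlations across 12466 genes ran from 0.04 to 0.28 over the 6 pairs, a description over genes that vary together.

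BHLHA15, a factor of secretory cells, had 1.74 and 1.41 RPKM under Nutlin-3A and 1.57 and 1.44 RPKM under the combination, against 1.38 and 1.23 RPKM under DMSO and 1.07 and 0.748 RPKM under Entinostat in p53-/- cells. All 4 libraries with the drug were above all 4 without it. The log2 change was 0.36 and was not called (adjusted p = 0.49 by limma).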
